A study of Caenorhabditis elegans with 2 samples.

Results

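Among the strongest ELT-3 ChIP-seq peaks of both replicates pooled, 391 were overlapped by no row of the set that the authors kept after thresholding on the irreproducible discovery rate (IDR) on genome build ce11. As many pooled peaks were taken, by signal, as that IDR set has rows. These 391 peaks are described here. They were chosen by measured values, namely their pooled signal and the absence of an IDR row, so their strength and their place in the replicate lists are given as descriptions, with no test. The other 623 strong pooled peaks overlapped an IDR row by at least 1 bp and served as the comparison. The whole pooled list held 30000 rows.

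ChIP-seq recovers the DNA bound by a protein and locates it as peaks of sequenced fragments. It was done on whole worms (Caenorhabditis elegans) at the L1 stage, just after hatching, with both sexes pooled and age unstated, in 2 biological replicates that form a single group. The strain was OP75, which carries the unc-119(ed3) mutation on chromosome III and the transgene wgIs75, from which ELT-3 is made with GFP and FLAG at its C terminus, so both replicates share mutation, transgene and tag. Chromatin came from whole animals, so cell types cannot be told apart, and the sources used here do not give the promoter or copy number of the transgene. No untagged strain was analysed here, and neither was the control that the authors used to call peaks.

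ELT-3 is a GATA-type zinc finger factor of the worm epidermis, the tissue that makes the cuticle. GATA factors recognise short sequences with the core GATA, and in C. elegans the longer form TGATAA is typical of their targets. The IDR procedure compares the ranking of peaks in replicates and is meant to keep those that rank alike in both. However, the ce11 IDR set shares no row with the pooled ce11 list. On build ce10 all 391 peaks had a counterpart inside the IDR set, as described below. Lying outside the ce11 set is therefore used here as a label, not as a measure of how well a peak replicated.

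To show what lies under the strongest of these peaks, 101 bases around the summit are printed for 8 of the 25 with the highest pooled signal, in 5′ to 3′ direction on the forward strand of ce11 (RefSeq assembly WBcel235). Capitals mark a match to WGATAR, which is GATA preceded by A or T and followed by A or G, on either strand. The first 4 are the strongest, among the chromosomes printed here, that hold such a match within 50 bp of the summit, each labelled by the gene with the nearest 5′ end.
tbc-6, chrII:6848213-6848313: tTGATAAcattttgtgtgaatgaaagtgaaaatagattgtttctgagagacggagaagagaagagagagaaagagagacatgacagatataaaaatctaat
M60.4, chrX:8236200-8236300: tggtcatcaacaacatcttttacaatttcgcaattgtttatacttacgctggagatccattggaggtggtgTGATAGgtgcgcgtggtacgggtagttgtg
nhr-119, chrII:2800967-2801067: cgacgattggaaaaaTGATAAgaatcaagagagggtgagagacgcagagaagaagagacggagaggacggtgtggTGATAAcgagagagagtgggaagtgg
lpin-1, chrV:13656510-13656610: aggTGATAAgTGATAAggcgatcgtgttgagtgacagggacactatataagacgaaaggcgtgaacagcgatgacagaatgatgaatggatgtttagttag

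The next 4 are the strongest, again among the chromosomes printed here, with no match in the window, and so have no capitals. Peaks on a chromosome that is not printed were passed over in both sets, among them the stronger ones near ints-4 and pck-2.
drr-2, chrIII:13643663-13643763: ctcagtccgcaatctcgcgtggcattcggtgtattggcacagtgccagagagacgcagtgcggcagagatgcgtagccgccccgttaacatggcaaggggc
W08E12.7, chrIV:3294710-3294810: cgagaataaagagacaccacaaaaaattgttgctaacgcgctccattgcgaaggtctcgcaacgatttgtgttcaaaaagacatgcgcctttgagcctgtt
cmd-1, chrV:1151492-1151592: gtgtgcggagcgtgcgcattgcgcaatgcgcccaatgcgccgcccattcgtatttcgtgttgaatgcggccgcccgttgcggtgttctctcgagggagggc
drap-1, chrV:9731372-9731472: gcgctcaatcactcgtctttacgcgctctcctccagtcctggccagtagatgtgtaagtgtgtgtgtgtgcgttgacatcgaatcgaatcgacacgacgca

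The peak near nhr-119, a nuclear hormone receptor gene, holds 2 matches, as does the one near lpin-1, which encodes the phosphatidate phosphatase lipin. The windows near tbc-6 and M60.4 hold 1 each. GC content was 31.7% near tbc-6, 44.6% near M60.4, 49.5% near nhr-119 and 42.6% near lpin-1. In the 4 windows without a match it was 61.4% near drr-2, 44.6% near W08E12.7, 64.4% near cmd-1 and 53.5% near drap-1.

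Nearly all of the 391 peaks were present in both replicates. Each was overlapped by a row of replicate 2, and 388 (99.2%) also by a row of replicate 1. These lists are long, with 17087 rows in replicate 1 and 7079 in replicate 2, so the ranks are more informative than mere overlap. With each replicate list limited to the same number of highest-signal rows as the pooled list, called the rank limit here, 266 of the peaks (68.03%) were found in replicate 1, 321 (82.1%) in replicate 2, and 202 (51.7%) in both. For the 623 IDR-overlapping peaks the corresponding counts were 530 (85.1%), 565 (90.7%) and 476 (76.4%). The 391 also stood lower in the pooled list, at a median rank of 688 against 370, and the part of this in the lower shares was not tested. The worse rank of a peak was a median of 1.81 times the better one for the 388 in both replicates. For the 623 it was 1.89 times. Spearman's correlation of the replicate ranks was -0.0313 for the 388 and 0.565 for the 623. The sets were chosen on pooled signal and cover different pooled ranks, with quartiles of 480 and 856.5 for the 391. Those of the 623 were 167 and 641.5. Choosing on pooled signal itself shapes such a correlation, so these values do not show how well the replicates agreed. Beyond the rank limit in both replicates were 6 of the 391, as were 4 of the 623.

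The ranks of the 391 peaks lay in the middle of the strong range in each replicate. Their median rank was 736 in replicate 1, among the 388 present, and 696 in replicate 2, compared with 390 in each replicate for the IDR-overlapping peaks. The best rank was 41 in replicate 1 and 64 in replicate 2, and the worst was 11788 and 2123. Their signal had a median of 26.5 in replicate 1 (range 8.69 to 62.1) and 44.2 in replicate 2 (25.9 to 91.4), and that of the IDR-overlapping peaks a median of 33.6 and 55.8, so the ranges of the 2 sets overlap. Replicate 1 gave the better rank for 179 peaks and replicate 2 for 209. The median offset from the pooled summit was 9.5 bp in replicate 1 and 2 bp in replicate 2, against 9 and 2 bp for the IDR-overlapping peaks. Because the pooled list derives from both replicates, presence in their lists and closeness to its summits are partly built in. The distance between the summits of the 2 replicates was not computed. Only 1 of the 391 was among the 100 highest rows of both replicates, compared with 51 of the 623.

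**Figure D1:**
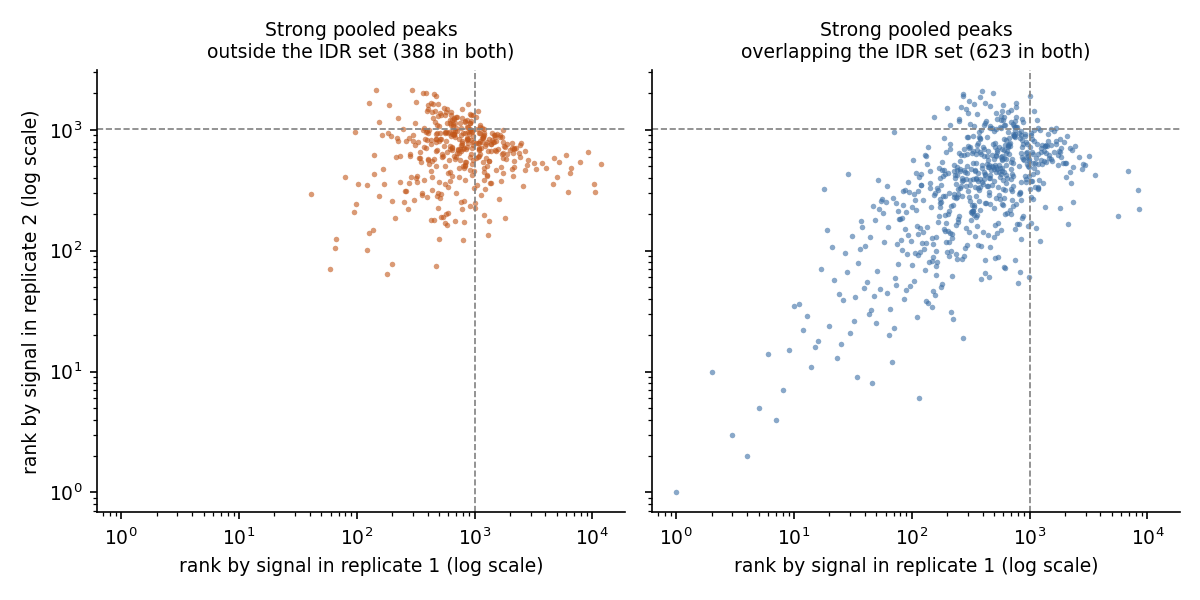
Each point is a strong pooled peak, placed by the best rank of an overlapping row in replicate 1 (horizontal, log scale) and replicate 2 (vertical, log scale), with dashed lines at the rank limit; the left panel holds the 388 peaks outside the IDR set that were found in both replicates, the right panel the 623 that overlap it. The left cloud has medians of 736 and 696 and holds 1 peak within rank 100 in both replicates, and the right cloud has medians of 390 and reaches rank 1.

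Of the 391, 3 peaks overlapped no row of replicate 1, at pooled ranks from 551 down. The strongest was near ekl-5, at X, 13917393 to 13917676, with pooled rank 551 and rank 219 in replicate 2 (signal 65.7). The next was near unc-14, on chromosome I, 7128299 to 7128582, with pooled rank 708 and rank 441 in replicate 2 (signal 52.8). The last lay near WBGene00185102 at IV, 15646506 to 15646789, at pooled rank 995 and rank 877 in replicate 2 (signal 40.1). The ekl-5 peak was also the single one of the 391 within 20000 bp of the 5′ end of elt-3 itself, where 5 IDR-overlapping strong peaks lay. None lay within 20000 bp of unc-119.

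Peaks outside the IDR set were more frequent at lower pooled ranks. Among the 100 strongest pooled peaks 5 (5%, 95% Wilson interval 2.15 to 11.2%) were outside the IDR set, compared with 47% (37.5 to 56.7%) of ranks 501 to 600 and 66% (56.3 to 74.5%) of ranks 801 to 900. The 391 peaks ran from rank 60 to rank 1013, with signals of 144 to 59.2 and a median of 68.95. The 623 had a median of 88.2. At the lower bound, the last 5 peaks inside (near M163.11, C26C6.8, col-10, C39E9.8 and cyp-37A1, ranks 1009 to 1013) had signals of 59.3 to 59.2, and the next 5 pooled rows without an IDR row (near scpl-3, fkh-7, snt-1, ZC506.1 and swan-1, ranks 1017 to 1021) had 59.1 to 58.9.

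**Figure D2:**
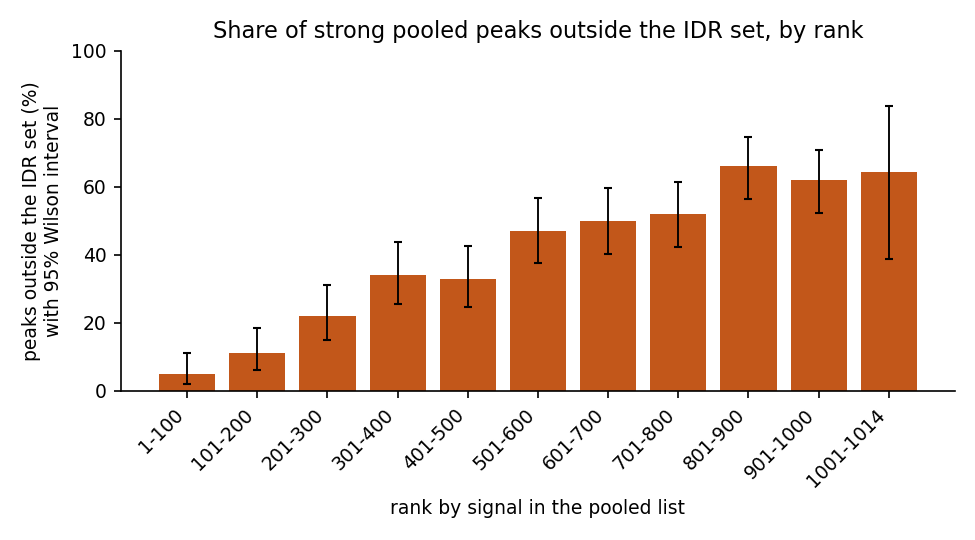
Bars give the percentage of pooled peaks that no IDR row overlaps, in bins of 100 ranks by pooled signal (the last bin holds 14 peaks), with 95% Wilson intervals that cover counting error over peaks only. The share is 5% in the first bin, 47% at ranks 501 to 600 and 64.3% in the last.

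Most of the peaks lay more than 10000 bp from any IDR row, but distances from random genome positions were not computed for comparison. The distance to the closest IDR row had a median of 29320 bp, and exceeded 10000 bp for 257 of the 391. It was at most 500 bp for 18, the closest being a peak near mdl-1, a Mad-like bHLH gene, 2 bp from an IDR row (X, 6749067 to 6749350), and one near pkg-2 at 19 bp (IV, 8527316 to 8527599). The mdl-1 and pkg-2 peaks were singled out after their values were seen. The next strong pooled summit was within 1000 bp for 18 of the 391.

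On the older build ce10, all 391 peaks had a counterpart inside the authors' IDR set. The ce10 IDR set consisted of exactly the 1043 highest-signal rows of the pooled ce10 list. On ce11, the IDR and pooled lists had no row in common, and the median width was 256 bp in the IDR set and 284 bp in the pooled list. Counterparts were found from the order of the 1500 strongest rows along each chromosome and their signals, with a tolerance of 5% and without comparing coordinates between builds, and 1498 rows were paired. For the 391 peaks the signals on the 2 builds differed by a median of 0.00119% and by at most 1.69%, and the lowest ce10 rank was 1013. All 623 IDR-overlapping peaks were paired with ce10 IDR rows as well. The q-value scores of all 391 peaks (lowest 2.35) exceeded the highest score in the ce11 IDR set, 2.26, although whether scores compare between lists is not known. Scores of the 623 were not summarised, so this is not shown to be particular to the 391. What differed in the making of the ce11 IDR set is not given in the sources used here and was not tested.

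Conversely, 392 IDR rows were overlapped by none of the strong pooled peaks. Of these, 367 were overlapped by some weaker pooled row, at a median rank of 1905, 337 by a row of replicate 1 (median rank 1988) and 318 by a row of replicate 2 (median rank 1852). The 391 peaks had median ranks of 736 and 696, but they were chosen on pooled signal and these IDR rows were not.

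The strongest of the 391 lay mostly near gene starts. Of the 25 with the highest signal, 18 were in a promoter window, which reached 1500 bp ahead of and 500 bp past the start of a protein-coding gene, and 6 held a WGATAR match. Among all 391 the corresponding counts were 225 (57.5%) and 141 (36.1%), and whether the 25 differ from the rest was not tested. All 25 were inside the rank limit in each replicate, at ranks 41 to 587 in replicate 1 and 64 to 435 in replicate 2. Signals below are given as pooled, then replicate 1, then replicate 2, and whether their scale is the same in each list is not known.

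The strongest peak (III, 13643571 to 13643854) lay in intergenic sequence 143 bp upstream of drr-2, which encodes a homologue of initiation factor eIF4H, and in the promoter window of set-16, a histone methyltransferase gene. Its signals were 144, 55.9 and 87.7, at ranks 60, 59 and 71. The second (II, 6848121 to 6848404; 135, 54.9 and 79.7) was intronic, 139 bp into tbc-6, a TBC-domain gene. The third lay in the 5′ UTR of ints-4, a subunit of the Integrator complex that processes small nuclear RNAs (chromosome I, 13663270 to 13663553; 129, 47.2 and 80.04). The fourth was in the 5′ UTR of pck-2, a phosphoenolpyruvate carboxykinase gene of gluconeogenesis (chromosome I, 7866061 to 7866344; 129, 54.8 and 75.3).

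Next came a peak 375 bp upstream of W08E12.7 (IV, 3294618 to 3294901; 127, 41.2 and 84.9). The sixth lay 4729 bp upstream of cmd-1, the calmodulin gene (V, 1151400 to 1151683; 124, 62.1 and 60.9), and showed the largest imbalance of these 6 peaks, with rank 41 in replicate 1 and 292 in replicate 2. The seventh was exonic in a 5′ UTR, 1316 bp downstream of the annotated start of drap-1 (V, 9731280 to 9731563; 122.6, 42.5 and 91.4). Then followed M60.4 (X, 8236108 to 8236391; 120.0, 31.4 and 85.9), nhr-119 (II, 2800875 to 2801158; 119.1, 50.7 and 66.2) and eef-1A.2, an elongation factor 1A gene (X, 7823157 to 7823440; 119.05, 44.9 and 72.2).

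The remaining 15 had pooled signals of 111 to 101. They were nearest to F53A3.1, lpin-1, Y22D7AR.6, rpl-24.1, homt-1, eef-1G, B0410.1, nhr-57, F07H5.13, F38E11.9, F46H5.2, zyg-11, ain-1, prp-8 and imb-3. Several of these have basic roles: eef-1G encodes elongation factor 1 gamma, prp-8 a core protein of the spliceosome, and imb-3 an importin of the beta family. Others act in regulation, such as zyg-11, a substrate receptor of a cullin ubiquitin ligase, and ain-1, a GW182-type partner of microRNA complexes. The peak labelled homt-1 was 6305 bp downstream of the 5′ end of that gene and near the end of its chromosome, within 500 bp of an annotated snoRNA gene. The intronic peak labelled F53A3.1 was 18386 bp downstream of the 5′ end of that gene, the largest distance to a nearest 5′ end among the 391.

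Compared with the IDR-overlapping strong peaks, the 391 lay closer to gene starts. Of the 391 summits, 225 (57.5%, 95% Wilson interval 52.6 to 62.3%) were in a promoter window, compared with 276 of 623 (44.3%, 40.4 to 48.2%; two-sided Fisher's exact test, adjusted p = 1.64e-04 over the 7 features tested). The median distance to the nearest 5′ end was 791 bp, against 1288 bp, and 164 summits (41.9%) were within 500 bp of it, against 190 (30.5%). Upstream of that 5′ end lay 274 (70.1%), against 392 (62.9%). More than 1 gene had the summit in its promoter window for 74 of the 391 (18.9%), compared with 89 of the 623 (14.3%). Fisher's exact test treats peaks as independent. Among the upper ranks, the list being divided into 2 equal parts by pooled rank, the difference in the promoter share was 9.46 percentage points and did not pass (Fisher's exact test, adjusted p = 0.293).

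**Figure D3:**
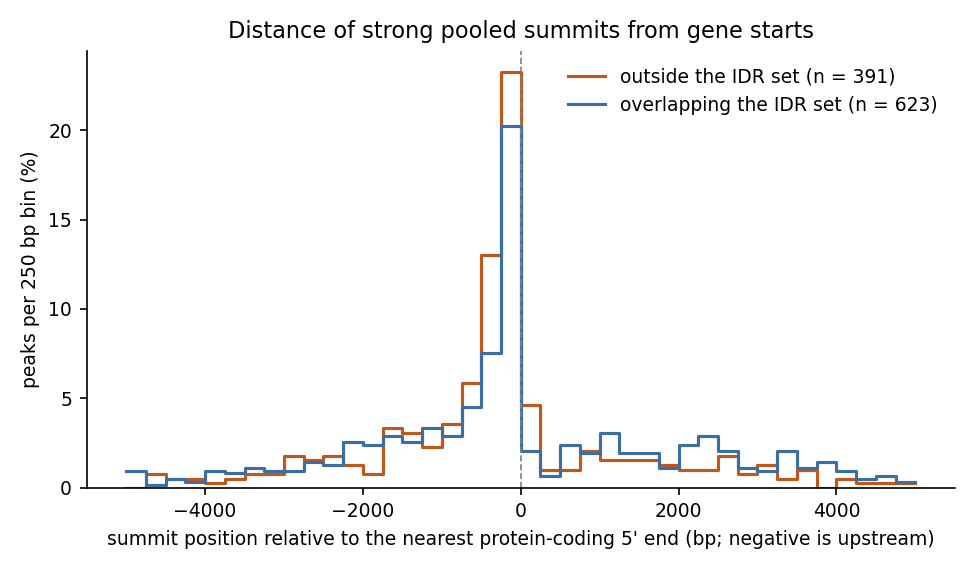
Lines give the percentage of strong pooled summits in each 250 bp bin of distance from the nearest protein-coding 5′ end, from 5000 bp upstream (negative) to 5000 bp downstream, for the 391 peaks outside the IDR set and the 623 overlapping it. Both lines peak just upstream of the start, and 41.9% of the 391 and 30.5% of the 623 lie within 500 bp of it.

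By the gene body, 270 of the 391 summits (69.1%) were intergenic, 91 (23.3%) intronic and 30 (7.67%) exonic. The IDR-overlapping peaks had 408 (65.5%), 183 (29.4%) and 32 (5.14%). None of these differences passed (Fisher's exact test, adjusted p = 0.245, 0.0616 and 0.150). Annotated 5′ UTRs held 18 of the 391 summits (4.6%) and 14 of the 623 (2.25%).

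The 391 peaks were spread over all 6 nuclear chromosomes, with 58 on I, 57 on II, 52 on III, 75 on IV, 73 on V and 76 on X. Densities ran from 3.49 per Mb on V to 4.29 per Mb on X and on IV. The X chromosome held 19.4% (15.8 to 23.6%) of the 391 and 23.3% (20.1 to 26.8%) of the 623, a difference that did not pass (Fisher's exact test, adjusted p = 0.187). X makes up 17.7% of the nuclear genome.

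GATA matches were more frequent at the summits of the 391 peaks than in their flanks, and less frequent there than at IDR-overlapping summits. A WGATAR match lay within 50 bp of 141 of the 391 summits (36.1%, 31.5 to 40.9%), and within flanking windows of the same width, 500 bp away, of 91 (23.3%, 19.4 to 27.7%). The difference passed the exact McNemar test (two-sided, p = 7.67e-05, with 103 peaks matched at the summit only and 53 in the flank only). At the 623 IDR-overlapping summits the share was 50.4% (46.5 to 54.3%), and the 391 were lower by 14.3 percentage points (two-sided Fisher's exact test, adjusted p = 5.34e-05). The 392 IDR rows outside the strong pooled peaks had 51.8% (46.8 to 56.7%), a comparison added after seeing the data, against which the 391 were also lower (adjusted p = 7.6e-05, Fisher's exact test). Of all consecutive 101 bp stretches of the nuclear genome, 19.8% held a match.

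**Figure D4:**
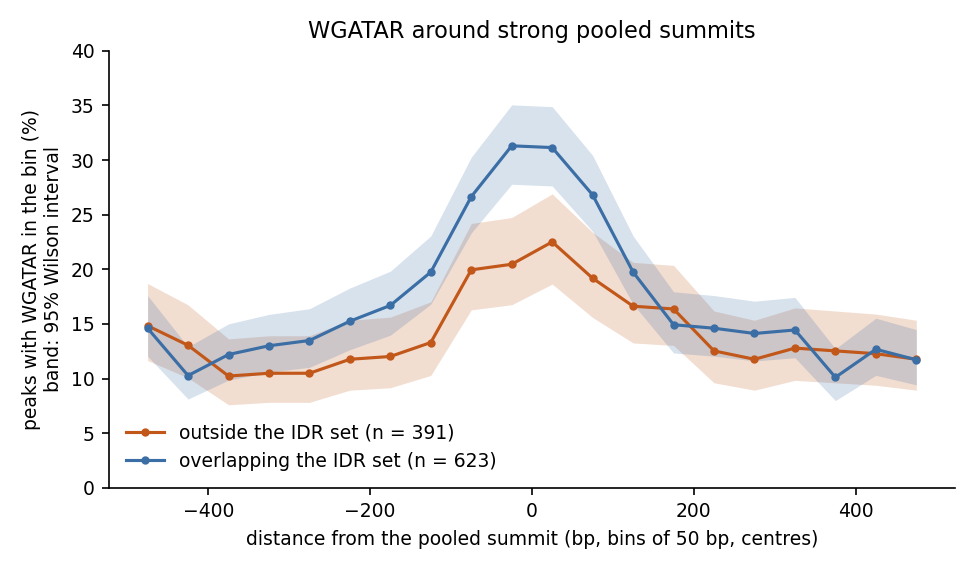
Lines give the percentage of strong pooled peaks with a WGATAR match in each 50 bp bin around the summit, with 95% Wilson bands, for the 391 peaks outside the IDR set and the 623 overlapping it. The 391 reach 22.5% just right of the summit and the 623 reach 31.3% just left of it, and beyond 250 bp all values of both lie from 10.1 to 14.8%.

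The deficit of GATA matches was present at both ends of the ranking. Among the upper ranks, the 391 were lower than the IDR-overlapping peaks by 17.6 percentage points (adjusted p = 0.00746, Fisher's exact test), and among the lower ranks by 16.3 points (adjusted p = 0.00112). Compared with their own flanks, the 108 strongest of the 391 had a match at 33 summits (30.6%) and 29 flanks (26.9%), which did not pass (exact McNemar test, p = 0.636). The 283 at lower ranks had 108 (38.2%) and 62 (21.9%; exact McNemar test, p = 2.33e-05). Whether these strengths differ from each other in their excess over flanks was not tested.

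By place in the genome, the share with a match was lower in the 391 both inside and outside promoter windows, values given without a test. In promoter windows 70 of 225 of the peaks (31.1%) had a match, against 122 of 276 IDR-overlapping peaks (44.2%). Elsewhere the counts were 71 of 166 (42.8%), against 192 of 347 (55.3%). On each of the 6 chromosomes the share was lower in the 391, from 31.03% against 40.6% on I to 41.1% against 59% on V. The median GC content of the 101 bp windows was 44.6% in the 391, compared with 42.6% in the 623. Within the 391 it was 39.6% with a match and 46.5% without. The part of base composition in the deficit was not tested.

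The number of matches and the forms of the motif are given without a test between sets unless one is named. A single match was present at 96 of the 391 summits (24.6%), 2 at 35 (8.95%) and 3 or more at 10 (2.56%), compared with 27.9%, 13.6% and 8.83% of the 623. TGATAA was at 20.7% of the 391 summits and 34.2% of the 623, with 11.5% and 10.9% in their flanks. AGATAA was at 6.91% and 14.9%, with 7.67% and 6.42% in the flanks, so for this form the 391 summits were not above their flanks (exact McNemar test, p = 0.775). In all 101 bp stretches TGATAA occurred in 9.35% and AGATAA in 5.88%. Among peaks with a match, the closest one was a median of 22.5 bp from the summit in the 391 and 16.5 bp in the 623.

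**Figure D5:**
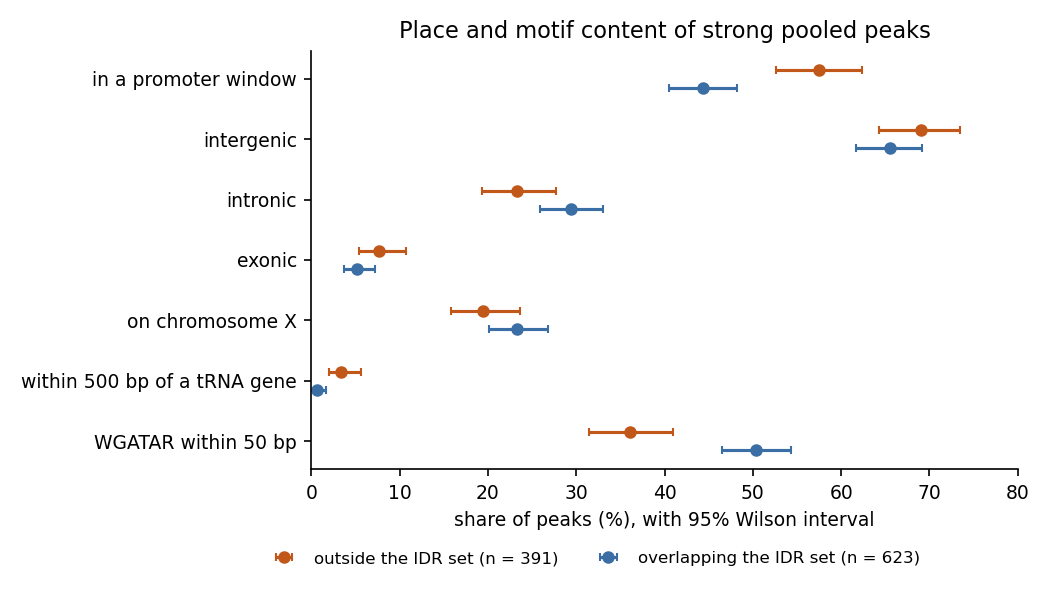
Points give the percentage of strong pooled peaks with each feature and bars the 95% Wilson interval, for the 391 peaks outside the IDR set (upper point of each pair) and the 623 overlapping it (lower point). The intervals are apart for the promoter window (57.5 and 44.3%), the tRNA gene (3.32 and 0.642%) and WGATAR (36.1 and 50.4%).

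When all hexamers were compared, TGATAA was the single one whose share passed the threshold between the 391 and the 623. It was 1 called among all hexamers, with both strands counted together, or 0.0481% (two-sided Fisher's exact test, adjusted p = 0.0075 after Benjamini-Hochberg). An unadjusted p below 0.05 was found for 150, but with so many hexamers tested many such values arise by chance. Whether 150 exceeds the number due to chance was not tested, so this count shows no broad difference in sequence. The other hexamers with the lowest p did not pass. Of these, the hexamer TATCAA was at 13.04% of the 391 summits and 23.1% of the 623, and CTTATC was at 15.3% and 25.4%. ATCAAT had shares of 10.2% in the 391 and 18.9% in the 623, GCGACA of 1.02% and 4.65%, and ATAAGA of 13.04% and 21.03%. The share of ATCTTA was 4.6% in the 391 and 10.9% in the 623. For AAAATA (17.4% of the 391 and 9.47% of the 623) and for AGAGTG (13.6% and 7.06%) the values lay the other way. Several of these share bases with TGATAA or its complement and are not separate observations.

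The hexamer GAGAGA was chosen after its values at these summits were seen, so its shares are a description with no test against flanks. It occurred within 50 bp of 112 of the 391 summits (28.6%, 24.4 to 33.3%) and 26 of their flanks (6.65%). It was at 24.2% (21.04 to 27.8%) of the 623, a difference that did not pass (Fisher's exact test, adjusted p = 0.905 over all hexamers), and at 5.18% of all 101 bp stretches. Of the printed windows, those near tbc-6, nhr-119, drr-2 and cmd-1 hold it on either strand.

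Peaks next to tRNA genes were more frequent among the 391. A tRNA gene lay within 500 bp of 13 of the 391 summits (3.32%, 1.95 to 5.6%), compared with 4 of the 623 (0.642%, 0.25 to 1.64%; two-sided Fisher's exact test, adjusted p = 0.0042). On X were 9 of the 13 and 1 of the 4. That chromosome holds 276 of the 612 annotated nuclear tRNA genes (45.1%). Together the 13 peaks were close to 17 tRNA genes, and 3 summits lay inside one. A pair of these peaks flanked WBGene00014324 (IV, 14611307 to 14611379), with pooled signals of 88.6 and 62.9.

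The tRNA-linked peaks were of moderate strength, at pooled ranks 364 to 918, and all 13 were present in both replicates. Their ranks ran from 189 to 1637 in replicate 1 (median 920) and from 177 to 1916 in replicate 2 (median 794). WGATAR was within 50 bp of 5 of the 13. Among the upper ranks the difference was 0.174 percentage points and did not pass (Fisher's exact test, adjusted p = 1). Many tRNA genes have near-identical copies, so the placing of reads there is uncertain. For other small RNA genes the counts within 500 bp, given without a test, were 16 of the 391 and 18 of the 623 for snoRNA genes, 3 and 11 for snRNA genes, and 2 and 5 for miRNA genes.

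Of 19973 protein-coding genes, 314 (1.57%) had one of the 391 peaks in the promoter window and 376 (1.88%) one of the 623, with 8 genes having both. The counts below, for lists of genes by function, are read beside the 1.57% and carry no test. A single peak can count for more than 1 gene.

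Genes of translation held several of the peaks. Of 79 ribosomal protein genes, 9 (11.4%) had one of the 391 in the promoter window, through 8 peaks, and 21 (26.6%) had an IDR-overlapping peak, so that 30 had a strong pooled peak of either kind. The highest signals were at rpl-24.1 and rps-10, which share a peak (chromosome I, 4584730 to 4585013; pooled 109.6, replicate 1 30.7 and replicate 2 75.5), rpl-28 (V, 12728319 to 12728602; 86.8) and rpl-5 (II, 8569388 to 8569671; 86.8). The others were rla-1, rps-26, rps-24, rpl-14 and rpl-9. A WGATAR match was at 1 of the 8 peaks, the one shared by rpl-24.1 and rps-10. Of 41 translation factor genes 4 had one of the peaks, namely eef-1A.2 (119.05), eef-1G (106), eif-3.C (78.4) and eif-3.E (59.4), none with a match. Among 31 tRNA synthetase genes cars-1 did (65.8), at ranks 4014 in replicate 1 and 485 in replicate 2, a wide gap.

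In tyrosine and tryptophan breakdown, which epidermis and intestine carry out in the worm, 2 of 11 genes had one of the 391. They were fah-1, the fumarylacetoacetase gene of the last step of tyrosine breakdown, and kynu-1, the kynureninase gene. The fah-1 peak (X, 6449046 to 6449329) lay 272 bp upstream with 2 WGATAR matches, a pooled signal of 89.8 and ranks of 276 and 364 in the replicates. The kynu-1 peak (X, 6109429 to 6109712) lay 233 bp upstream with no match, a signal of 65.2 and ranks of 687 and 981. The IDR-overlapping peaks covered 6 other genes of the list (gst-42, hgo-1, hpd-1, kmo-1, tatn-1 and tdo-2). In sulfur amino acid and ornithine metabolism 1 of 15 genes, cth-1, a cystathionine gamma-lyase gene, had one of the 391 (68.5), at a peak it shares with str-7, and 4 had an IDR-overlapping peak.

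Nuclear hormone receptor genes encode ligand-regulated transcription factors. By count, this list had the most genes with one of the 391, namely 13 of 274 (4.74%), through 13 separate peaks. By share, several smaller lists were higher, among them ribosomal protein genes (11.4%). An IDR-overlapping peak was at 7 of the 274 (2.55%). The strongest were at nhr-119 (119.1; 417 bp upstream), nhr-57, a hypoxia-responsive gene in C. elegans (V, 4131561 to 4131844; 105; 186 bp upstream), nhr-105 (IV, 7049671 to 7049954; 98.6; 343 bp upstream) and nhr-1 (X, 17513591 to 17513874; 95.5; 330 bp upstream). A WGATAR match was at 5 of the 13. Among the 13 genes, nhr-25 acts in epidermal development and molting. Its peak lay at X, 13008168 to 13008451, 183 bp upstream, with a pooled signal of 77.1, ranks of 557 and 503 in the replicates and no match.

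Among the other epidermal lists the counts were small. In those described here, shares ran from 1.7% for cuticle collagens to 9.09% for antimicrobial peptides, beside the 1.57% of all protein-coding genes. The epidermal attachment list, of 13 genes, had none. Of 16 epidermal transcription factor genes and of 18 molting genes, nhr-25 alone had one of the 391 (6.25% and 5.56%). IDR-overlapping peaks were at sma-3 and lrp-1. Of 176 cuticle collagen genes 3 (1.7%) did, namely col-38, at the peak it shares with rpl-5, dpy-10, a furrow collagen gene (II, 6712435 to 6712718; 64.5; 350 bp upstream, 1 match), and col-10 (V, 9166366 to 9166649; 59.3). Of these, col-10 also had an IDR-overlapping peak. Of 22 genes for antimicrobial peptides of the epidermis, 2 did: nlp-24 (V, 11614878 to 11615161; 78.7; 1356 bp upstream, 3 matches) and nlp-33 (V, 11147157 to 11147440; 59.9; 47 bp upstream). Both were in both replicates, nlp-24 at ranks 598 and 440 and nlp-33 at 887 and 836. Of 20 vacuolar proton ATPase genes, which acidify organelles, 1 did, vha-12 (X, 4190640 to 4190923; 70.5), and 3 had an IDR-overlapping peak.

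Energy metabolism and stress genes were present in small numbers. The shares were 6.38% for the respiratory chain, 6.67% for chaperones and 4.17% for glutathione and oxidative stress. They were 2.99% for UDP-glucuronosyltransferases and 1.35% for cytochrome P450 genes, beside the 1.57% of all protein-coding genes. The respiratory chain list had 3 of 47 genes, cox-5B (92.3), cyc-1 (68.6) and atp-1 (62.7), and the chaperone list 4 of 60, cct-8 (80.4), dnj-13 (72.9), dnj-9 (64.3) and dnj-12 (61.5). None of these 7 peaks held a WGATAR match, and the rank of the atp-1 peak was 3758 in replicate 1 but 535 in replicate 2. The glutathione and oxidative stress list had 3 of 72, sod-4 (84.6), gst-24 (69.9) and gst-13 (60.3). Of 67 UDP-glucuronosyltransferase genes 2 did, ugt-19 (78.7) and ugt-64 (75.9), and of 74 cytochrome P450 genes 1, cyp-37A1 (59.2).

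Of 80 histone genes 2 had one of the 391, his-67 and his-68, which share a peak (75.9). Histone genes have near-identical copies, and signal there is uncertain. Of 1364 chemoreceptor genes 4 (0.293%) did, srh-2 (84.1), srd-43 (74.9), srlf-1 (71.3) and str-7 (68.5), and 7 (0.513%) had an IDR-overlapping peak. All 4 chemoreceptor peaks held a WGATAR match, and the one at srd-43 is also one of those with a summit inside a tRNA gene. No gene had one of the 391 in the lists for the proteasome and p97 (36 genes), GATA factors (11), epidermal attachment (13), intestine (71), body wall muscle (14), neurons (14), pharynx (8), germ line (12), heterochronic genes (11) and the unc-119 marker (1). IDR-overlapping peaks were at 3 proteasome and p97 genes, 1 intestinal gene and 1 heterochronic gene of these lists.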

How the data were processed

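Peak lists of 2 replicates of ELT-3 ChIP-seq in L1 larvae were used, for each replicate, for both pooled and after IDR thresholding, on builds ce11 and ce10. Per the deposited file records, the authors made the replicate and pooled lists from ChIP and control alignments and derived the IDR sets from them. The ce11 IDR set holds no row of the pooled ce11 list, so how it came from these lists is not known. The sources used here give no aligner, peak caller, version or threshold. Column 7 holds a deposited signal per peak, never below 0, whose scaling between lists is not stated, and column 9 a deposited q-value score, used as a description. Read depth is unknown, and intervals (Wilson, 95%) cover counting error over peaks only. Peaks of 1 locus are not independent replicates. Coordinates are 1-based on ce11, and the rows of the ce11 lists end within the chromosome lengths of WBcel235. Genes are those of Ensembl release 115.

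Overlap means at least 1 bp. The 7 features (promoter window, intergenic, intronic, exonic, on X, tRNA gene within 500 bp, WGATAR within 50 bp) were compared between the 391 and the 623 peaks with Fisher's exact test and Benjamini-Hochberg adjustment, and likewise all hexamers. A result passed at an adjusted p below 0.05. Flanks lay 500 bp away on a seeded random side. The Fisher tests of hexamers and of WGATAR were tried on random genome windows with and without planted TGATAA. Such windows were not matched to peak summits in base composition. The McNemar test was checked on a small example with a known answer, and the tests of the other features were not simulated. Peaks, features and the 28 gene lists were chosen with earlier results of these data known. Named were the 25 peaks with the highest signal, up to 4 genes of each list, all peaks absent from a replicate, 5 rows on each side of the rank limit, the 10 hexamers with the lowest p, elt-3 and unc-119. The further genes named, GAGAGA and the small RNA classes other than tRNA were chosen with their values in view. The symbols ifa-2, lin-4, let-7 and gnmt-1 matched no protein-coding gene.

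Alternatives were pooled lists 0.5 and 2 times as long, an IDR row within 500 bp, 1 replicate alone, 1 peak per run of 1000 bp, other overlaps, windows, motifs, flanks, promoter windows and tRNA distances, and the upper and lower ranks. The IDR rows outside the strong pooled peaks were added as a comparison after seeing the data. Statistics were computed in Python 3.11.15 with scipy 1.17.1, statsmodels 0.14.6, pandas 2.3.3 and numpy 2.4.6, and plots with matplotlib 3.10.9.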

Additional observations from a re-analysis of the deposited data

How the results depend on the processing

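The lower share of GATA matches in the 391 peaks kept its direction and passed in all 13 alternative settings. Differences ran from -17.6 to -8.02 percentage points. These are not 13 separate checks, because the pooled list 0.5 times as long and the upper ranks give the same comparison. Some settings used TGATAA or AGATAA alone in place of WGATAR. The value of -8.02 was for AGATAA, which did not pass when adjusted over all hexamers (Fisher's exact test, adjusted p = 0.0619). The promoter excess passed in all settings but the shorter pooled list (0.5 times the length) and, with the same peaks, the upper ranks, where it was 9.46 points. There the excess near tRNA genes was 0.174 points and did not pass, and the excess of WGATAR over flanks was 3.7 points and did not pass. With AGATAA alone the excess over flanks was -0.767 points.

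The differences by gene body depended on the setting. The intronic deficit passed with the longer pooled list (2 times the length; -6.08 points), with IDR rows within 500 bp counted as shared (-7.55), with 1 peak per run of 1000 bp (-6.52), within the lower ranks (-12.3) and against the other IDR rows (-9.38). The intergenic difference passed within the lower ranks (10.3) and against the other IDR rows (9.36), and was -1.3 without replicate 2, where the highest peaks of replicate 1 alone were used. With the longer list the exonic excess passed (3.1) and the X difference was 0.89. The causes were not tested.

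The number of hexamers passing was 0 with the shorter list, 11 with the longer, 3 with IDR rows within 500 bp counted as shared, 8 with windows of 100 bp, and 4 to 7 with 1 replicate alone. Peaks outside the IDR set numbered 108 in the shorter and 1200 in the longer list, and 412 to 426 with 1 replicate alone. With a promoter window of 500 and 250 bp, 194 genes had one of the 391, and 350 of the 391 were inside 2 times the rank limit in both replicates. For 1 replicate alone the WGATAR difference was -14.9 to -14.1 points, the excess over flanks 11.4 to 17.8, and the differences were 9.69 to 13.01 for promoters, -1.3 to 4.06 for intergenic, -5.63 to -1.6 for intronic, 1.57 to 2.9 for exonic sequence, -3.05 to -2.31 for X and 2.25 to 2.67 for tRNA genes. No paired analysis was possible because both replicates belong to 1 group. The lists give no reads, so depth could not be weighed.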
